A study of Mus musculus with 16 samples.

Results

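Csrp1, Csrp2 and Csrp3 encode the cysteine and glycine rich proteins (CRPs), a small family of LIM domain proteins. The 3 genes were taken by symbol from the 45594 genes of the authors' expression table, and their 7 transcripts from the deposited transcript counts. Csrp3 was chosen by its higher level at the later ages in these same libraries, so its values across age are given as a description, without a test. Csrp1 and Csrp2 were added as its family members by name.

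A LIM domain is a pair of zinc fingers that binds other proteins rather than DNA. CRPs carry a pair of LIM domains, bind alpha-actinin and zyxin, bundle actin filaments, and can also enter the nucleus, where they act with serum response factor and GATA factors. CRP3, the product of Csrp3 and also called muscle LIM protein, belongs to heart and skeletal muscle, where it sits at the Z-disc, and mice that lack it develop dilated cardiomyopathy. CRP1 and CRP2, the products of Csrp1 and Csrp2, are best known from smooth muscle. In the rat, muscle LIM protein has also been described in retinal neurons, in ganglion cells after injury to the optic nerve.

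The libraries came from rod photoreceptors of C57BL/6J mice with a reporter, Nrlp-GFP, in which the Nrl promoter drives green fluorescent protein. Nrl is the factor that commits photoreceptor precursors to the rod fate. The ages were 3, 12, 18 and 24 months, called 3M, 12M, 18M and 24M. Each age had 4 libraries, and the strain label of every library gives the reporter line. The labels' treatment protocol also names an Nrl knockout with the same reporter, which no library's strain label gives; Nrl itself was at 484 to 816 CPM in all 16 libraries. Rods were isolated by flow sorting of the fluorescent cells, and the study compared ages. The design text calls the libraries of an age biological replicates, and the labels do not say how many animals went into one. Total RNA was sequenced and read as estimated counts per transcript, with 20579144 to 28791777 counts per library. Levels are given as CPM, counts scaled to the size of each library with TMM factors, and folds and tests come from edgeR's quasi-likelihood fit over all 16 libraries, with Benjamini-Hochberg adjustment over all genes tested. In such bulk RNA, fewer cells with a transcript and less transcript per cell cannot be told apart. Rod markers had the highest summed level of the cell types examined: the 18 of them came to between 41438 and 48820 CPM at 24 months and between 51965 and 56507 CPM at 3 months.

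Csrp3 was at a low level at 3 months and several times higher at each later age. Its values were 2.95, 2.83, 3.54 and 2.99 CPM at 3 months, and 16.7, 15.1, 17.1 and 18.3 CPM at 12 months. They were 24.9, 21.9, 15.96 and 21.9 CPM at 18 months, and 17.4, 22.2, 25.6 and 21.5 CPM at 24 months. Every library of the 3 later ages lay above every 3M library, and the lowest of the 24M libraries was 4.93 times the highest of the 3M libraries. The later ages overlapped with one another.

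The means were 3.08 ± 0.314 CPM at 3 months, 16.8 ± 1.33 at 12 months, 21.1 ± 3.73 at 18 months and 21.7 ± 3.35 at 24 months (SD, n = 4 each). Against 3M, the fitted log2 fold change of Csrp3 was 2.45 (SE 0.15) at 12 months, 2.78 (SE 0.15) at 18 months and 2.82 (SE 0.15) at 24 months, which is 5.46-fold, 6.87-fold and 7.05-fold. These 3 comparisons share the 3M libraries. The log2 fold change was 0.33 (SE 0.13) for 18M over 12M and 0.04 (SE 0.13) for 24M over 18M, so most of the difference lay between 3M and 12M.

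Among the 12177 genes that reached 5 CPM in at least 4 libraries, Csrp3 ranked 5 by its rise at 24 months, 5 at 12 months and 6 at 18 months. Csrp3 reached 5 CPM only in libraries of the later ages, so it is among these genes through the ages where it was high. In that fit 323 genes, or 2.65%, were called higher at 24 months than at 3 months at an adjusted p under 0.05, and the median gene had a log2 fold change of 0.01. A gap between all 24M and all 3M libraries with the 24M libraries on top was found for 5.24% of the genes; for 12M and 18M the share was 2.42% and 7.25%. The authors' deposited table of differences does not name its libraries. It has 11826 genes, as does their normalized table, which holds 13 of the 16 libraries. In the table of differences Csrp3 has log2 differences from 3M of 2.35 at 12 months, 2.84 at 18 months and 2.62 at 24 months. There it ranks 8, 6 and 13 among the rises of 11826 genes, and it is the only one of the family in that table.

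**Figure D1:**
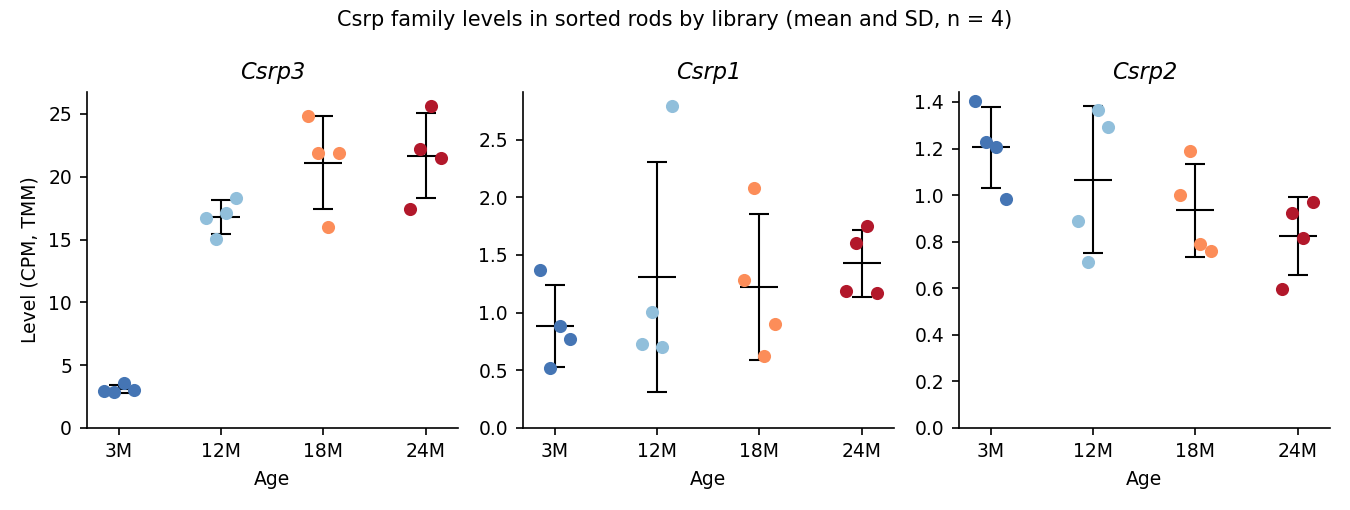
Levels of Csrp3, Csrp1 and Csrp2 in each library, in CPM with an axis of its own for each gene, by age; points are libraries and bars the mean with SD (n = 4). The 3M libraries of Csrp3 lie between 2.83 and 3.54 CPM and its later libraries between 15.1 and 25.6 CPM, while Csrp1 and Csrp2 stay between 0.521 and 2.79 CPM.

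Levels of different genes were compared per transcript length, as TPM (counts per length, scaled within each library) computed from the estimated counts. Csrp3 had 1.87 ± 0.314 TPM at 3 months, 11.3 ± 1.76 at 12 months, 13.5 ± 1.60 at 18 months and 14.2 ± 0.764 at 24 months (SD, n = 4 each). By its mean TPM it ranked 9624 of 21791 protein-coding genes at 3 months and 3918 at 24 months. Csrp1 had 0.583 ± 0.0334 TPM at 24 months and 0.323 ± 0.126 at 3 months, and Csrp2 had 0.452 ± 0.109 TPM at 24 months and 0.581 ± 0.0930 at 3 months. Csrp3 thus held 93.2 ± 0.429% of the family's summed TPM at 24 months and 67.5 ± 4.07% at 3 months. Csrp3 had the highest TPM of the family in every age mean, and Csrp1 and Csrp2 lay within about 1 SD of each other at 12 and 18 months.

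The Csrp3 gene (ENSMUSG00000030470) lies on the minus strand of chromosome 7, at chr7:48830398-48848033 of GRCm38. It has 2 main annotated starts, one for the transcript Csrp3-201 and one inside the first intron for Csrp3-202. The RefSeq promoter windows near these starts (GRCm38.p6, 250 bases before to 50 after the RefSeq start, written 5′ to 3′ on the gene's strand) are shown because the deposited counts divide Csrp3 between transcripts from both starts. The RefSeq starts are 48848051 and 48843671, slightly upstream of 48848033 for Csrp3-201 and 48843651 for Csrp3-202. Capitals mark the motifs searched: the E-box CANNTG, which myogenic and other helix-loop-helix factors bind, and the run TATATA.
Csrp3 upstream start, chr7:48848002-48848301: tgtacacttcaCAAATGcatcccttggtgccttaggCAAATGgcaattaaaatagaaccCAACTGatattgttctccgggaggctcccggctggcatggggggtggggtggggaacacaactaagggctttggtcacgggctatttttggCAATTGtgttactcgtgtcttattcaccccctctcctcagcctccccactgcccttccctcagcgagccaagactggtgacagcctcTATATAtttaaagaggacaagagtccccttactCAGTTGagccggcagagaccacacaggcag
Csrp3 inner start, chr7:48843622-48843921: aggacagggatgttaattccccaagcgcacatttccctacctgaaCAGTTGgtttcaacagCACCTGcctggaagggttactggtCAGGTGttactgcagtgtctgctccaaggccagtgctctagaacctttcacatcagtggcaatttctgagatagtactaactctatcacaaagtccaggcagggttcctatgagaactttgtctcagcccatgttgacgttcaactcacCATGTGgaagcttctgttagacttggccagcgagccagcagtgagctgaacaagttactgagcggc

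The upstream window held 5 E-boxes and 1 TATATA run, and the inner window held 4 E-boxes and no TATATA run. E-boxes were present in 72.3% and TATATA in 5.67% of the 32851 RefSeq promoter windows of the same length, searched on both strands. The letters TAATCC, a site of the photoreceptor homeobox factor CRX, and the CArG box and MEF2 site of muscle genes were also searched on both strands; neither Csrp3 window held one. TAATCC was present in 7.06%, the CArG box in 1.63% and the MEF2 site in 3.19% of all windows. The motifs do not overlap in these windows, and a match or its lack describes the letters only.

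Most Csrp3 counts were given to Csrp3-201, a transcript of 877 bases in 6 exons with 582 coding bases that starts at the upstream start. Csrp3-201 averaged 54.2 estimated counts at 3 months, 256 at 12 months, 261 at 18 months and 297 at 24 months. Its log2 fold change was 2.47 (SE 0.27) for 24M over 3M. Csrp3-202, which has the same coding length but its own first exon, was at 0 in all 4 libraries at 3 months and in 3 of 4 at 12 months, where the other held 44.3 estimated counts. It had 0, 20.6, 84.5 and 54.6 estimated counts at 18 months, and 29.7, 27.8, 126 and 32.8 at 24 months. Only 58 bases of Csrp3-202 and 36 of Csrp3-201 are in no other listed transcript, so the division of counts between them rests on few reads and a 0 can be a failed estimate. Csrp3-203, a short transcript of 3 exons, was at 0 in all 16 libraries.

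The rest of the Csrp3 counts were given to Csrp3-204, annotated as a retained intron. It is 2433 bases long and keeps the whole of intron 3 of Csrp3-201, at chr7:48833872-48835466, which is 1595 bases. Csrp3-204 averaged 24.8 estimated counts at 3 months, 134 at 12 months, 176 at 18 months and 199 at 24 months, with a log2 fold change of 2.95 (SE 0.20) for 24M over 3M. Total RNA contains unspliced transcripts, and reads from these and from a retained intron cannot be told apart in the estimated counts.

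The share of Csrp3 counts held by Csrp3-201 was the one measure of Csrp3 that was tested. It was 54.6 ± 7.38% at 24 months and 68.3 ± 6.13% at 3 months (SD, n = 4 each), a difference of -13.7 percentage points. The libraries ran between 50.4% and 65.6% at 24 months and between 59.9% and 74.7% at 3 months, so they overlapped. The exact two-sided permutation test over the 8 libraries gave p = 0.0571, the same after adjustment since 1 share was tested, where the smallest p these numbers allow is 0.0286. Computed from TPM instead of counts, the share was 71.1 ± 6.87% at 24 months and 85.5 ± 3.58% at 3 months, with an exact permutation p = 0.0286 for 4 against 4 libraries. The call therefore depended on which unit was used. The difference in counts was between -17.4 and -11.6 points when each library was left out. Csrp3-202 held 9.24 ± 6.56% of the counts at 24 months and 0% in every 3M library. The whole gene had 440 to 660 estimated counts per library at 24 months and 70 to 88 at 3 months. Since a 0 at that depth can be a failed estimate, the tested share cannot be taken as independent of the rise by which Csrp3 was chosen.

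**Figure D2:**
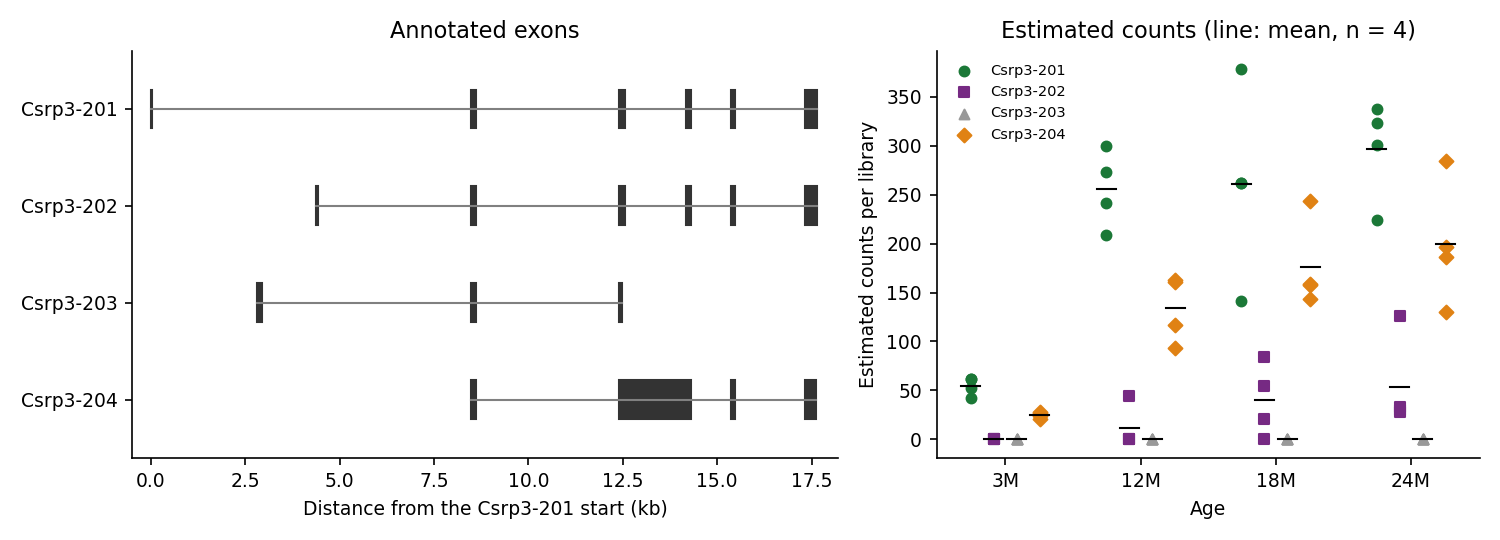
Exons of the 4 Csrp3 transcripts against distance from the upstream start in kilobases (left) and the estimated counts given to each transcript in each library by age (right; points are libraries and black lines the mean, n = 4). Csrp3-202 is at 0 in every 3M library and Csrp3-203 in all 16 libraries, and Csrp3-201 and Csrp3-204 are both higher at the later ages.

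Csrp1 (ENSMUSG00000026421, chr1:135720061-135752232, plus strand) was at a low level and did not pass any test across age. Its levels were 1.37, 0.521, 0.884 and 0.768 CPM at 3 months, and 0.727, 1.01, 0.701 and 2.79 CPM at 12 months. They were 1.28, 2.08, 0.624 and 0.903 CPM at 18 months, and 1.19, 1.60, 1.75 and 1.17 CPM at 24 months. These values stand for 14 to 56 estimated counts per library, and the ages overlapped in every pair. Because Csrp1 and Csrp2 did not reach 5 CPM, their tests come from the fit of the 17683 genes with 1 CPM in at least 4 libraries.

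Csrp1 averaged 1.43 ± 0.291 CPM at 24 months and 0.885 ± 0.355 at 3 months (SD, n = 4 each). The log2 fold change for 24M over 3M was 0.66 (95% interval -0.29 to 1.62; edgeR adjusted p = 0.612). For 12M over 3M it was 0.52 (adjusted p = 0.747) and for 18M over 3M it was 0.43 (adjusted p = 0.735), and the test over all 4 ages gave an edgeR adjusted p of 0.900, where 2.54% of genes were called. In this fit 3.64% of genes were called at 24 months against 3 months, 2.41% at 18 months and 1.03% at 12 months. The interval is wide at this depth, so any change within it remains compatible with these counts. One library, replicate 4 of 12M, held the highest Csrp1 level; without it the log2 fold change of 12M over 3M was -0.15. Nearly all counts came from Csrp1-201, for which the log2 fold change of 24M over 3M was 0.66 (edgeR adjusted p = 0.744 over 43572 transcripts, of which 1.33% were called).

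The highest and the lowest Csrp1 level fell in the libraries with the highest and the lowest level of Müller glia markers. Müller glia are the glial cells that span the retina, and the sort was meant to leave them out. The 18 Müller glia markers, all detected, summed to between 395 and 519 CPM at 24 months, between 367 and 510 CPM at 18 months, between 327 and 719 CPM at 12 months and between 302 and 469 CPM at 3 months. Replicate 4 of 12M had the highest sum (719 CPM) and the highest Csrp1 (2.79 CPM) of the 16 libraries, and replicate 2 of 3M had the lowest sum (302 CPM) and the lowest Csrp1 (0.521 CPM). Of the 16 markers tested at 24 months against 3 months, 1 rose and none fell, where 2.65% of all genes tested rose, with a median log2 fold change of 0.41 against 0.01 over all genes. The one that rose was Car2, a carbonic anhydrase (0.50, SE 0.084, edgeR adjusted p = 0.00159). The part of these cells in the levels of Csrp1 and Csrp3 was not tested. Csrp3 was 18.3 CPM in the 12M library with the highest sum, against 15.1 to 17.1 CPM in the other 12M libraries, and it was 2.95 CPM in the 3M library with a sum of 469 CPM, within the range of sums at 24 months.

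**Figure D3:**
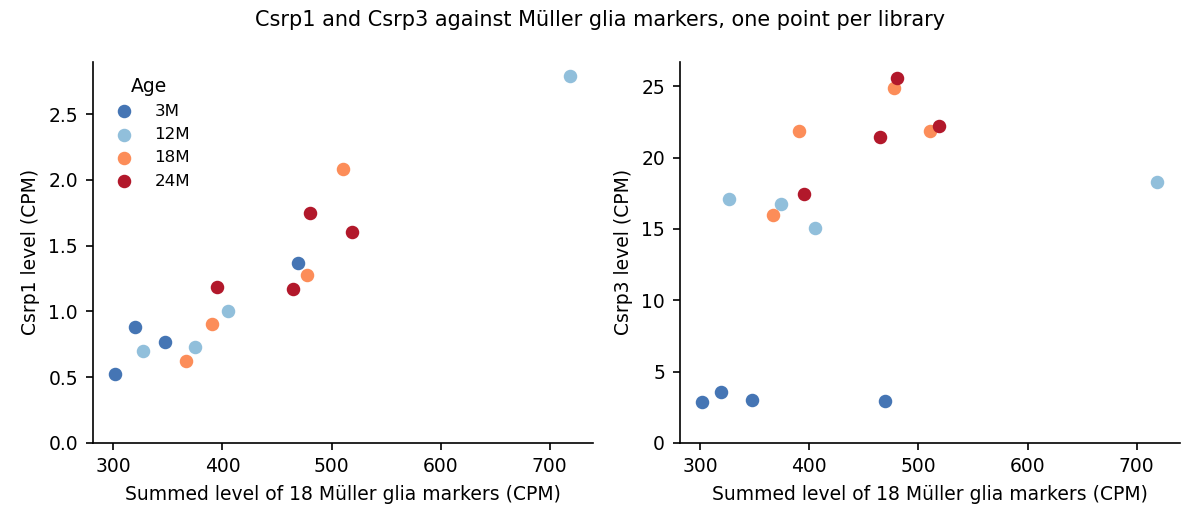
Csrp1 (left) and Csrp3 (right) levels in CPM in each of the 16 libraries against the summed CPM of 18 Müller glia markers, coloured by age. Csrp1 is highest in the library with the highest sum and lowest in that with the lowest, and the 3M libraries of Csrp3 lie below all others.

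Csrp2 (ENSMUSG00000020186, chr10:110920177-110939599, plus strand) was as low as Csrp1, and its mean was lower at each later age without passing the test. Its levels were 1.40, 1.23, 1.21 and 0.982 CPM at 3 months, and 0.889, 0.713, 1.37 and 1.29 CPM at 12 months. They were 0.999, 1.19, 0.790 and 0.760 CPM at 18 months, and 0.595, 0.922, 0.815 and 0.972 CPM at 24 months. All 24M libraries lay below all 3M libraries, which was so for 4.81% of the 17683 genes, and the gap was narrow, with 0.972 CPM in the highest 24M library against 0.982 CPM in the lowest 3M library. The levels stand for 15 to 39 estimated counts per library.

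Csrp2 averaged 0.826 ± 0.168 CPM at 24 months and 1.20 ± 0.173 at 3 months (SD, n = 4 each). The log2 fold change for 24M over 3M was -0.56 (95% interval -1.07 to -0.05; edgeR adjusted p = 0.307). For 12M over 3M it was -0.19 (adjusted p = 0.798) and for 18M over 3M it was -0.39 (adjusted p = 0.553), and the test over all 4 ages gave an edgeR adjusted p of 0.720. Its single transcript, Csrp2-201, gave -0.57 on the log2 scale for 24M over 3M (edgeR adjusted p = 0.531). Between the later ages neither gene was called: for 24M over 18M the log2 fold change was 0.23 for Csrp1 and -0.17 for Csrp2 (edgeR adjusted p = 0.977 for both). That fit called 0.00566% of genes for 18M over 12M and 0.00% for 24M over 18M. For 24M over 18M, 920 of 17683 genes had an unadjusted p under 0.05 and DESeq2 called 33.

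The genes next to each member were read for the same ages; the first value in parentheses is the log2 difference of 24M from 3M, here and in the gene lists that follow. Each of the 3 lies near a neuron navigator gene, which encode proteins of the microtubule cytoskeleton: Nav2 by Csrp3, Nav1 by Csrp1 and Nav3 by Csrp2. Csrp3 and Csrp2 also share the families of their nearest neighbours, a Zdhhc palmitoyltransferase and an E2f cell cycle repressor. Zdhhc13, 2957 bases from Csrp3, had 15.2 ± 1.54 CPM at 24 months and 13.8 ± 0.806 at 3 months, a log2 difference of 0.14 (edgeR adjusted p = 0.558). E2f8, 18395 bases away on the other side, had 1.58 ± 0.175 CPM at 24 months and 1.21 ± 0.233 at 3 months. Its log2 difference was 0.38 in the fit with a minimum of 1 CPM (edgeR adjusted p = 0.613). Nav2 had 22.7 ± 2.27 CPM at 24 months and 21.3 ± 3.12 at 3 months (0.09, edgeR adjusted p = 0.870, SD with n = 4 each throughout). The other 3 of the 6 coding genes nearest to Csrp3, Mrgprb2, Mrgprb3 and Dbx1, had no count at 24 or 3 months. No tested neighbour of Csrp3 was called. Of all 12177 genes tested at 5 CPM, 4.25% were called in either direction, so the lack of a call among so few genes says little.

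Near Csrp1, Nav1 rose: it had 65.7 ± 6.21 CPM at 24 months and 31.8 ± 2.37 at 3 months, a log2 difference of 1.05 (SE 0.096, edgeR adjusted p = 3.70e-06, n = 4 each). Nav1 starts 112765 bases from Csrp1. Lad1, which encodes a basement membrane anchor protein, also rose, to 7.04 ± 2.56 CPM at 24 months against 3.70 ± 0.688 at 3 months (0.93, edgeR adjusted p = 0.0202). That call was lost when single libraries were left out, namely replicates 1, 2 and 3 of 3M and replicate 4 of 24M (edgeR adjusted p up to 0.0766), and when only the 24M and 3M libraries were fitted (0.103). Lad1 reached 5 CPM only in libraries of 18M and 24M, so it was tested through the ages where it was high. The muscle troponin gene Tnni1 beside it had 2.50 ± 0.474 CPM at 24 months and 3.77 ± 0.352 at 3 months. Tnni1 was tested in the fit with a minimum of 1 CPM and did not pass (-0.61, edgeR adjusted p = 0.0715). None of the 6 neighbours of Csrp2 was called, Zdhhc17 at 2157 bases included (log2 fold change -0.02, edgeR adjusted p = 0.981). With 4.25% of all genes called, that too says little about so few genes.

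The protein-coding genes most like Csrp3 were ranked by Pearson's r of log2(CPM + 0.5) over the 16 libraries, among 10285 genes. Genes at the top of that order were Hdc (r = 0.988), which encodes the histamine-forming enzyme, Nod2 (0.973), a sensor of bacterial cell walls, Gsc2 (0.971), a homeobox factor, Glb1l3 (0.971), a galactosidase-like gene, Actr3b (0.967), an actin-nucleating Arp3 protein, Tm7sf3 (0.960) and Hspa2 (0.956), a heat shock protein. All 7 were lower at 3 months than at the later ages, so the 3M libraries stand apart from the rest and carry much of each r. After subtracting the mean of each age, r with Csrp3 was 0.74 for Hdc, 0.67 for Nod2, 0.63 for Actr3b and -0.39 for Glb1l3. The sizes differed: Hdc had a log2 fold change of 1.03 for 24M over 3M, Actr3b 0.71 and Nod2 2.71, against 2.82 for Csrp3. Hdc had 132 ± 10.4 CPM at 24 months and 64.7 ± 4.62 at 3 months, and Nod2 had 18.1 ± 2.76 CPM at 24 months and 2.77 ± 0.800 at 3 months (SD, n = 4 each).

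**Figure D4:**
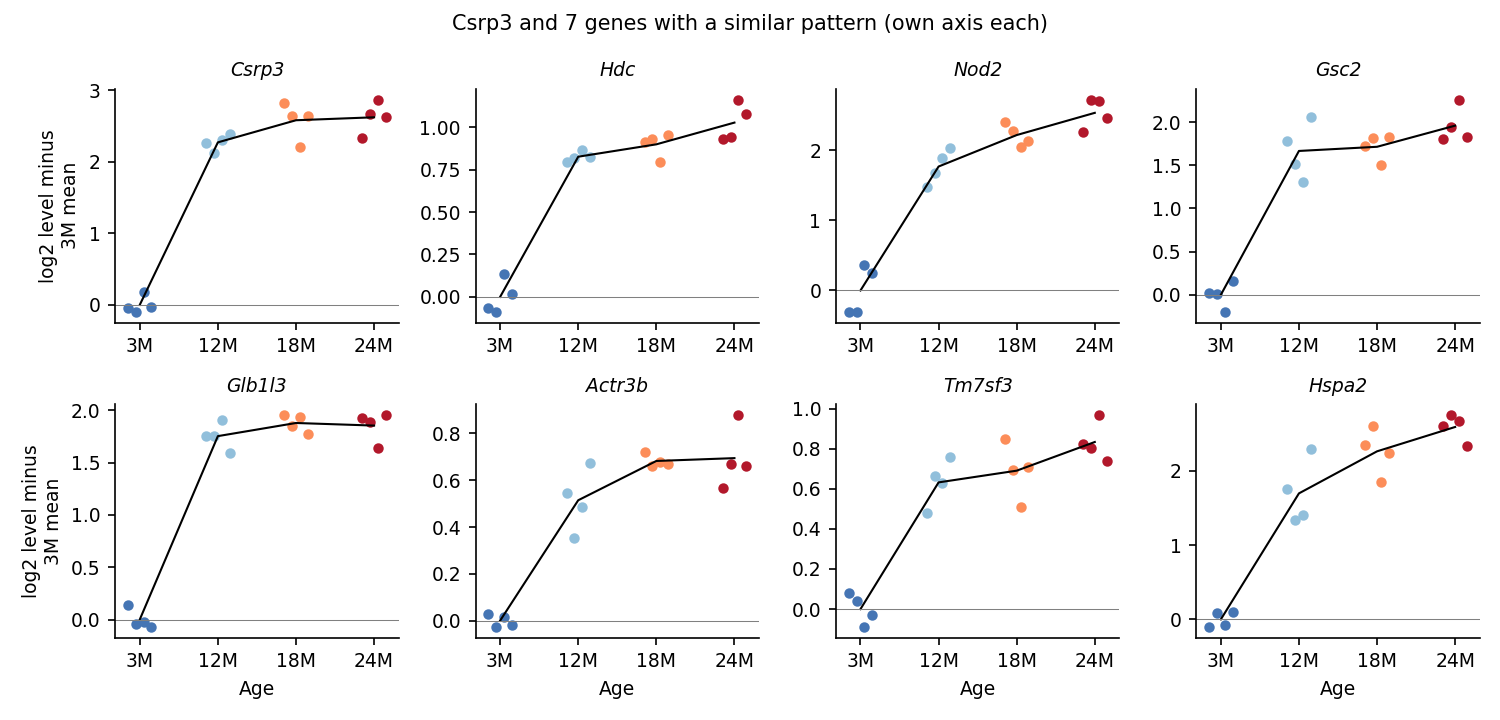
log2 CPM relative to the 3M mean in each library for Csrp3 and 7 genes with a high r with it, by age. Each gene has an axis of its own, points are libraries and lines join the age means; all 8 genes sit around 0 at 3 months and above 0 in every later library.

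For Csrp1 the 3 genes most like it were Rlbp1 (r = 0.952), which encodes the retinaldehyde-binding protein of Müller glia and pigment epithelium, Glul (0.952), the glutamine synthetase of Müller glia, and Prdx6 (0.922), a peroxiredoxin. Here r was as high after subtracting the age means: 0.95 for Rlbp1, 0.96 for Glul and 0.91 for Prdx6. Csrp2 was most like Immt (0.886), a mitochondrial inner membrane organizer, Gpr180 and Tmem123 (0.83 for both). These values are over 16 libraries prepared in 1 way, and each of the low members rests on at most 56 counts.

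Genes of the contexts in which CRPs are known were then counted at 24 months against 3 months. In that comparison 4.25% of the 12177 genes were called in either direction. Of 50 genes of striated muscle structure, where muscle LIM protein has its usual place, 11 were tested, 1 rose and none fell, with a median log2 fold change of 0.05. Tnnt2, cardiac troponin T, was the one that rose, with 6.16 ± 1.19 CPM at 24 months and 3.30 ± 0.434 at 3 months (0.91, edgeR adjusted p = 0.00740, n = 4 each). Tnnt2 reached 5 CPM only in libraries of 18M and 24M, so it was tested through the ages where it was high. At the minimum of 1 CPM, 25 of the list were tested, Tnnt2 alone rose (0.89, edgeR adjusted p = 0.00922) and none fell. Of the 50, 24 stayed under 1 CPM in every library and 2 had no count at all, and the list summed to between 113 and 143 CPM at 24 months and between 106 and 131 CPM at 3 months. Some muscle-defining genes were at or near 0: skeletal actin Acta1 at 0.168 CPM at 24 months and 0.207 at 3 months, myoglobin Mb at 0.0243 CPM at 24 months and 0.0180 at 3 months, desmin Des at 0.0183 CPM at 24 months and 0.0789 at 3 months, and the myogenic factor Myod1 at 0 at both ages. Others were not: cardiac actin Actc1 had 4.00 ± 1.37 CPM at 24 months and 4.30 ± 2.17 at 3 months, with up to 10.6 CPM in a library (-0.11, edgeR adjusted p = 0.967), and muscle creatine kinase Ckm had 4.19 ± 0.435 CPM at 24 months and 3.62 ± 0.565 at 3 months (0.20 with the lower minimum, adjusted p = 0.692). Titin (Ttn) had 20.4 ± 4.53 CPM at 24 months and 17.8 ± 3.08 at 3 months (0.20, edgeR adjusted p = 0.787), and the Z-disc actinin Actn2 had 13.3 ± 1.996 CPM at 24 months and 13.5 ± 1.09 at 3 months (-0.02, adjusted p = 0.982).

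Of 19 known binding partners of CRPs, such as actinins, zyxin and serum response factor, 14 were tested, none was called by edgeR at the minimum of 5 CPM, and the median log2 fold change was -0.08. Of these, 3 had a lower level at an unadjusted p under 0.05. The calcineurin subunit gene Ppp3cc had 118 ± 5.07 CPM at 24 months and 140 ± 9.34 at 3 months; its edgeR adjusted p was 0.0523 at 5 CPM and 0.0450 at 1 CPM, and DESeq2 called it lower. The alpha-actinin gene Actn4 had 127 ± 7.58 CPM at 24 months and 124 ± 6.15 at 3 months (0.04, edgeR adjusted p = 0.903), and Srf had 19.7 ± 4.07 CPM at 24 months and 17.9 ± 1.62 at 3 months (0.14, adjusted p = 0.805). Zyxin (Zyx) was under 1 CPM at both ages. Csrp2bp, which encodes an acetyltransferase-like protein that binds CRP2 and was picked after its values were seen, had 43.4 ± 5.29 CPM at 24 months and 46.3 ± 5.41 at 3 months (-0.09, edgeR adjusted p = 0.831). Of 13 genes of the muscle stress response 2 were tested, and of 18 muscle and SRF transcription factors 8 were tested, and none was called by edgeR or DESeq2 or had an unadjusted p under 0.05.

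Of the 16 tested genes in 3 lists of other LIM genes and their binders, 3 were called, all of them adaptors of the actin cytoskeleton. That is 18.8%, against 4.25% of all genes tested. It rests on 3 calls, of which 1, Lasp1, was not kept with the lower minimum. Of 14 LIM-only genes 3 were tested and none was called (1 lower at an unadjusted p under 0.05, none by DESeq2), and of 14 LIM homeodomain factors and their binders 1 was tested and not called. In the fit with the lower minimum, 1 of 6 LIM-only genes rose: Lmo2, a haematopoietic transcription cofactor, with 3.46 ± 0.772 CPM at 24 months and 1.63 ± 0.307 at 3 months (1.07, edgeR adjusted p = 0.00678). That fit tested 33 LIM adaptor genes, of which 1 rose and 2 fell. Of 9 LIM homeodomain factors and binders none was called there, and of all genes 3.64% were. At the minimum of 5 CPM, of 36 LIM adaptor genes of the actin cytoskeleton 12 were tested, 2 rose and 1 fell. Lima1, an actin-bundling protein, rose (183 ± 7.73 CPM at 24 months and 142 ± 4.36 at 3 months; 0.36, edgeR adjusted p = 0.00326). Limd1, a scaffold of the Ajuba family, fell (6.80 ± 1.31 CPM at 24 months and 12.6 ± 1.38 at 3 months; -0.89, edgeR adjusted p = 0.00102). Lasp1, which binds actin, was called at an adjusted p of 0.0455 with 7.88 ± 1.90 CPM at 24 months and 3.95 ± 1.10 at 3 months (1.00, edgeR), and lost its call without any 1 of 11 libraries: replicates 1, 2 and 3 of 3M, 1 and 2 of 12M, 1, 2 and 4 of 18M, and 2, 3 and 4 of 24M (adjusted p up to 0.160), with the lower minimum or no filter, and with only the 24M and 3M libraries fitted (0.0602). Most of the libraries in which Lasp1 reached 5 CPM were of 18M and 24M, the ages where it was high. Wtip, also of the Ajuba family and named after its values were seen, fell in the lower-minimum fit, to 0.128 ± 0.0917 CPM at 24 months against 1.71 ± 0.283 at 3 months (-3.79, SE 0.50, edgeR adjusted p = 0.000168). Wtip reached 1 CPM only in the 3M libraries, so it was tested through the age where it was high.

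Of 51 genes of actin dynamics 45 were tested, 1 rose and 1 fell, with a median log2 fold change of -0.06. The tropomyosin gene Tpm4 was called lower with the lower minimum alone (edgeR adjusted p = 0.0423, against 0.0523 at 5 CPM). Filamin A (Flna) rose by 0.48 (edgeR adjusted p = 0.0239). It lost its call without replicate 1 or 2 of 3M or replicate 3 or 4 of 24M (edgeR adjusted p up to 0.0963), with no filter on low counts (0.0860) and with only the 24M and 3M libraries fitted (0.127). Destrin (Dstn), which severs actin filaments, fell (log2 fold change -0.60, edgeR adjusted p = 0.00221). Of 17 smooth muscle and pericyte genes, the usual setting of CRP1 and CRP2, 3 were tested and 2 fell. The myosin light chain kinase gene Mylk had 35.6 ± 2.73 CPM at 24 months and 92.6 ± 8.58 at 3 months (-1.38, edgeR adjusted p = 1.89e-06), and Synpo2 had 69.7 ± 1.71 CPM at 24 months and 85.8 ± 4.47 at 3 months (-0.30, adjusted p = 0.0147). Synpo2 lost its call without replicate 2 of 3M or replicate 4 of 24M (edgeR adjusted p up to 0.0697), with only the 24M and 3M libraries fitted (0.0547), with no filter on low counts (0.0962), and with limma on the authors' normalized CPM (up to 0.126). Smooth muscle actin (Acta2) was near 0, at 0.0251 CPM at 24 months and 0.0663 at 3 months. Tagln had 3.41 ± 0.274 CPM at 24 months and 3.126 ± 0.723 at 3 months (0.12 with the lower minimum, edgeR adjusted p = 0.887).

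**Figure D5:**
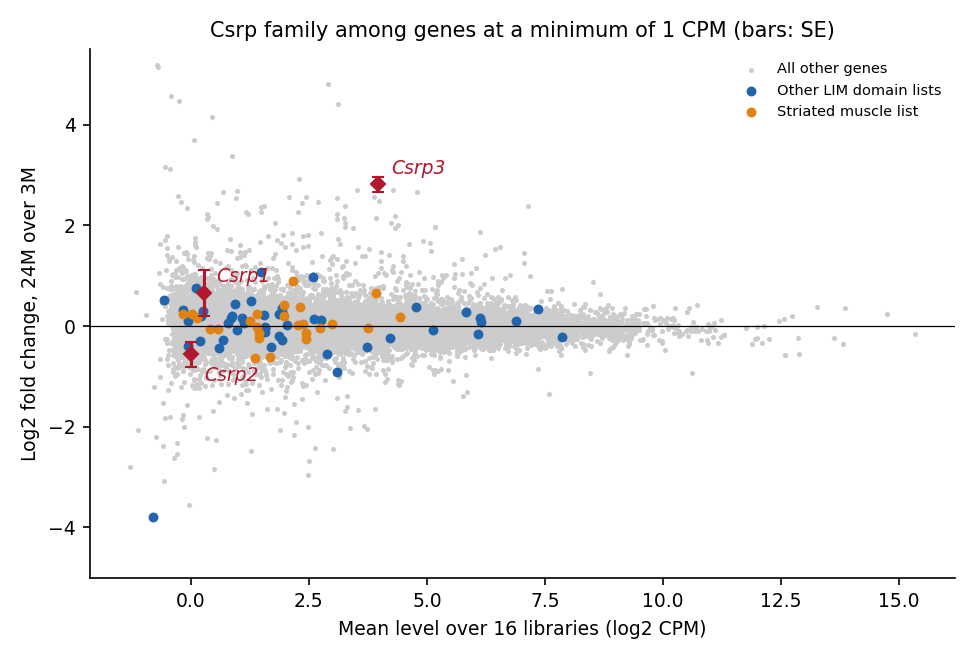
Log2 fold change of 24M over 3M against the mean level (log2 CPM over 16 libraries) for the genes with at least 1 CPM in 4 libraries. The Csrp genes are red diamonds (bars: SE), genes of the 3 lists of other LIM genes and their binders are blue, and striated muscle genes are orange. The value of Csrp3 is from the fit at 5 CPM and all other values are from the fit at 1 CPM. Csrp3 lies at 2.82, above all blue and orange points. The lowest blue point is Wtip at -3.79, which reached 1 CPM only in the 3M libraries.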

How the data were processed

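RNA of sorted rods was measured in 16 libraries, 4 at each of 4 ages. The authors deposited estimated counts per transcript with no normalization, a gene table of CPM (a signal whose deposited columns sum to different totals), and a normalized CPM table of 11826 genes in 13 libraries, without replicate 4 of 12M and replicate 3 of 18M and of 24M. A further table deposited by the authors gives log2 differences from 3M, mean log2 expression, F scores and p-values with adjusted p-values; only its log2 differences were used. Tools listed in the submitters' processing notes, without a role, are edgeR 3.13.9, limma 3.32.2 and kallisto 0.42.5, and the build is GRCm38.p4.

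Here 111896 of 113468 transcripts were matched to genes of GENCODE M21 (GRCm38), the unmatched holding 0.73% to 1.08% of counts, and rounded estimated counts were summed to genes. edgeR 4.0.16 in R 4.3.3 (TMM, quasi-likelihood, no covariates) tested genes with 5 CPM in at least 4 libraries; Csrp1 and Csrp2 fall under that minimum and were tested at 1 CPM, which had been listed as an alternative. Calls use an adjusted p under 0.05. TPM used annotated transcript lengths. 1 count is 0.0486 CPM in the shallowest library and 0.0347 in the deepest. Libraries differed by more than sampling noise (lowest chi-square per degree of freedom 8.99). The labels number the replicates 1 to 4 at each age without saying what a number shares.

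Genes named are the members, the 3 nearest protein-coding genes on either side, the 8 genes most like Csrp3 (of which 1 is not reported here) and the 3 most like Csrp1 and Csrp2, up to 5 called members of each list, and a fixed set of muscle, CRP-partner and rod genes. Further lists counted at 24M against 3M were markers of other retinal cells. Of 14 endothelial markers 4 were tested, of 6 astrocyte markers 2 and of 10 microglia markers 1. Of 12 bipolar markers 7 were tested, of 14 amacrine and ganglion markers 8, and of 9 pigment epithelium markers 1. None of those tested was called by edgeR or DESeq2 or had an unadjusted p under 0.05. Of 11 cone markers 7 were tested and 1 rose (Gnb3). Of 18 rod markers 2 fell (Pdc and Gngt1), 8 were lower at an unadjusted p under 0.05 and 6 by DESeq2, with a median log2 fold change of -0.24 against 0.01 over all genes. Gngt1 (edgeR adjusted p = 0.0376) kept its call in 15 of 27 alternatives, with adjusted p up to 0.127; it was lost with a replicate block (0.0609), no filter (0.0642) or only the 24M and 3M libraries (0.0505), and without replicate 1, 2 or 4 of 3M, 1 of 12M, 1 or 4 of 18M, or 1, 3 or 4 of 24M. The members and lists were chosen with earlier results of these data known. Alternatives were DESeq2 1.42.0, limma 3.58.1 with sample weights or on the normalized CPM, other filters, the 13 libraries, a length covariate, a replicate block and leaving out each library.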

Additional observations from a re-analysis of the deposited data

Results flagged for a closer look

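In 20 groups of 4 libraries examined for a library far from the others, 3 were found, where chance gives about 1 in 20. Csrp1 was 2.788 CPM in replicate 4 of 12M, against 0.7015 to 1.007 CPM in the other 3 libraries of that age. The share of Csrp3 counts given to Csrp3-201 was 36.93% in replicate 3 of 18M, against 56.97% to 60.81% in the others of that age. That share was 65.62% in replicate 2 of 24M, against 50.42% to 51.23% in the others of that age. The shares at 1 age come from transcripts that divide the same reads.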

How the results depend on the processing

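Csrp3 stayed several-fold above 3M at every later age in all 27 alternatives run: the log2 fold change of 24M over 3M was between 2.07 and 2.91. It was smaller with limma on the authors' normalized CPM, where the pseudocount lowers it: 2.19 at 12M and 2.46 at 24M with a pseudocount of 0.5, and 1.82, 2.26 and 2.07 at 12M, 18M and 24M with a pseudocount of 2. The log2 fold change of 24M over 18M, 0.04 in the reported fit, was -0.17 in the 13 libraries and -0.20 and -0.18 with limma at the pseudocounts of 0.5 and 2. Csrp1 changed sign at 12M over 3M in the 13 libraries (-0.15) and without replicate 4 of 12M (-0.15). Its log2 fold change of 18M over 12M, -0.09, turned to 0.62 with sample weights, 0.80 in the 13 libraries, and 0.57, 0.14 and 0.02 without replicate 4 of 12M, replicate 3 of 18M and replicate 4 of 18M, and that of 24M over 18M, 0.23, turned to -0.054 with weights and -0.11 in the 13 libraries. Csrp2 turned to 0.0093 at 18M over 12M with weights. The cause was not tested. No alternative called Csrp1 or Csrp2: adjusted p for 24M over 3M was between 0.0848 and 0.855 for Csrp1 and between 0.150 and 0.618 for Csrp2.

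Leaving out each library gave log2 fold changes of 24M over 3M from 2.73 to 2.91 for Csrp3, 0.48 to 0.96 for Csrp1 and -0.65 to -0.43 for Csrp2; Csrp1 ran from -0.15 to 0.81 for 12M over 3M and from -0.46 to 0.57 for 18M over 12M. The Csrp3-201 share passed only by TPM (-14.4 points, exact permutation p = 0.0286). Between ages, deviations of libraries with the same replicate number had r from -0.744 to 0.726 (median 0.06, over 0.1 in 11 of 24 pairs). For different numbers r ran from -0.807 to 0.849 (median -0.065, over 0.1 in 31 of 72 pairs), so both kinds of pair spread widely. With a replicate block the 24M over 3M values were 2.82 for Csrp3, 0.67 for Csrp1 and -0.57 for Csrp2, with no call of a member changed. The counts of genes higher and lower at 24M, 323 and 195, became 1654 and 1657 with sample weights, 1482 and 1398 in the 13 libraries, 751 and 643 with the length covariate, 1302 and 1167 (pseudocount 0.5) or 1335 and 1180 (pseudocount 2) with limma on normalized CPM, and DESeq2 called 338 lower. Without replicate 4 of 12M 306 were lower, and without replicate 4 of 24M 129. The normalized table gives no value for Csrp1 or Csrp2. Depth limits both, at 14 to 56 counts per library.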
